A study of Mus musculus with 8 samples.

Results

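The genes described here are the cytochromes P450 of families 1 to 3, the enzymes that oxidise drugs, toxins, steroids and fatty acids in liver. Of 72 array probes that carry such a gene name, covering 54 genes, 45 genes had a brightest probe that was well above background on at least 4 of 8 arrays, out of 18534 features tested in all. No measured difference between groups entered that choice. The 45 were 2 genes of subfamily 1a, 3 of 2a, 2 of 2b, 11 of 2c, 9 of 2d, 5 of 2j, 6 of 3a, and 1 each of 2e, 2f, 2g, 2r, 2s, 2t and 2u. Cyp2b9, with 5 arrays, lay just inside the threshold, and Cyp1b1 and Cyp2b13, with 2 arrays each, just outside it. Cyp2b19, Cyp2b23, Cyp2c65, Cyp2c66, Cyp2j11, Cyp2w1 and Cyp3a44 also stayed below it, with at most 1 array each, and are not described further.

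The samples were livers of male mice in which fibrosis had been produced over 5 weeks with TAA (the usual abbreviation of thioacetamide) or CCl4 (carbon tetrachloride), both liver toxins. The animals were then kept for 2 weeks or 1 week, with miR-29a or a negative control nucleotide (NC) injected every 3 days. Each of the 8 combinations of agent (TAA or CCl4), time (2 weeks or 1 week) and oligonucleotide (miR-29a or NC) was 1 sample on 1 array. All of them had received a toxin, and no liver without one is analysed here. The age, strain and number of animals behind a sample are not given in the sources used here.

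P450 enzymes are haem proteins of the endoplasmic reticulum that insert 1 oxygen atom into a substrate with electrons passed on by P450 oxidoreductase. In the liver many of them are concentrated in hepatocytes around the central vein, and their genes are controlled by receptors for foreign compounds: the aryl hydrocarbon receptor for the 1a genes, the constitutive androstane receptor (CAR) for the 2b genes and the pregnane X receptor (PXR) for the 3a genes. Cyp2e1 is known as the enzyme that turns CCl4 and thioacetamide into their reactive forms, and P450 transcripts are known to fall in inflamed liver.

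The level of a gene is given as log2 of its processed signal relative to the 75th percentile of its array. It can be compared between arrays for 1 gene but not between genes, since probes differ in brightness. Each array held 62976 spots, none of them saturated, with between 43.9% and 48.4% of probes well above background. All 8 arrays lay on 1 slide and were scanned together. The TAA and the CCl4 arrays occupied different positions in the slide's first coordinate, so position and agent cannot be told apart. The TAA 1-week NC array stood apart. The 5 measured genes of 9 on a neutrophil marker list had their highest level on it, with a summed log2 level of 8.33, against 2.90 to 3.48 on the other 7 arrays. Its summed acute phase level (20 genes of 21) was 14.2, against 12.3 to 12.7, and its Kupffer cell level (9 genes of 10) was 8.34, against 5.38 to 6.27. The hepatocyte list, 9 genes of 10, had a summed level between 12.6 and 13.0 on all 8 arrays, and no hepatocyte gene tested was below background on any. Alb, its defining marker, lay between 10.8 and 11.2 on every array. Liver RNA mixes cell types, so fewer hepatocytes and less RNA per hepatocyte cannot be told apart in any result that follows. The counts, the calls and many of the differences at 1 week are therefore also given without the TAA 1-week NC array.

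**Figure D1:**
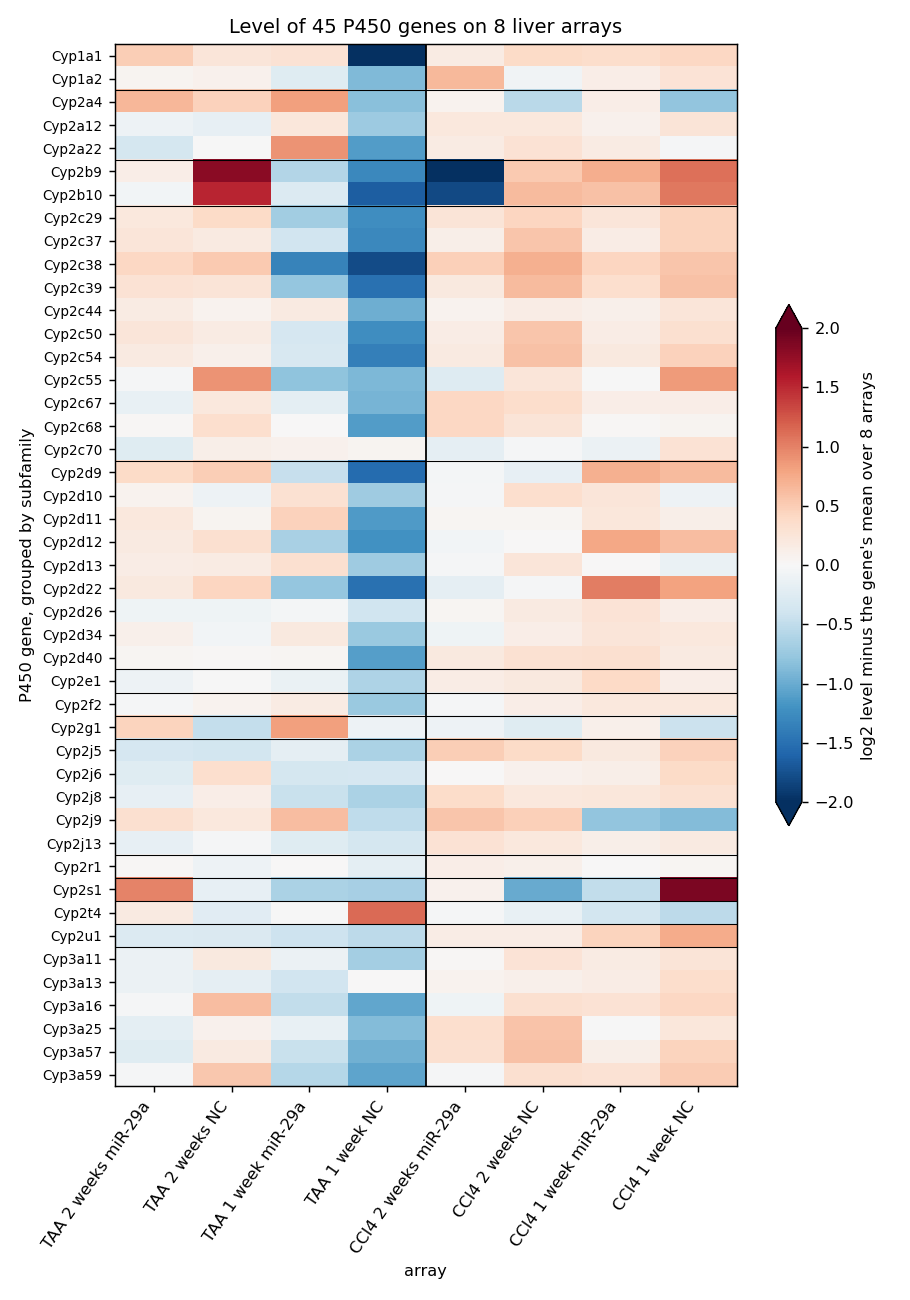
Level of 45 P450 genes (rows, grouped by subfamily) on 8 liver arrays (columns), as the log2 level minus the gene's mean over the 8 arrays, with TAA arrays left of the line and CCl4 arrays right of it. Blue cells are below and red cells above the gene's mean, and the TAA 1-week NC column holds the lowest value of the 8 for 36 of the 45 genes.

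At 1 week the P450 genes were lower in TAA livers than in CCl4 livers. With the 2 arrays of each agent and week as its replicates, 15 of 45 genes (33.3%) passed limma's moderated test at an adjusted p under 0.05, all 15 of them lower after TAA. Of all features tested 35.7% passed, 23.1% as lower and 12.6% as higher. The share of P450 genes called lower was thus above that of all features, while the share called in either direction was not. The median difference over the 45 genes was −0.69 on the log2 scale, against −0.16 over all features, and 41 of 45 genes had a negative difference. Both TAA 1-week arrays lay below the 6 other arrays for 21 genes, against 25.3% of all features. For 33 genes both TAA arrays lay below both CCl4 arrays of that week, against 42.6% of all features. Without the CCl4 1-week NC array only 4 genes (8.89%) were called, all lower, against 9.24% of all features lower, so the share no longer stood above the background. In the fit without the TAA 1-week NC array 13 genes passed, 11 lower (24.4%) and 2 higher, against 18.2% of all features lower in that fit, and the median over the 45 genes was −0.38. Of the 15 genes, 10 were among those 11. Scaling each array to its median moved the median of all features to −0.75 and that of the P450 genes to −1.29, and 36 genes were then called lower, against 57.6% of all features. Relative to all features the P450 median was −0.54 under either scaling. These scalings differ only by a constant per array, so this value could not differ between them. Under quantile normalization it was −0.41.

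**Figure D2:**
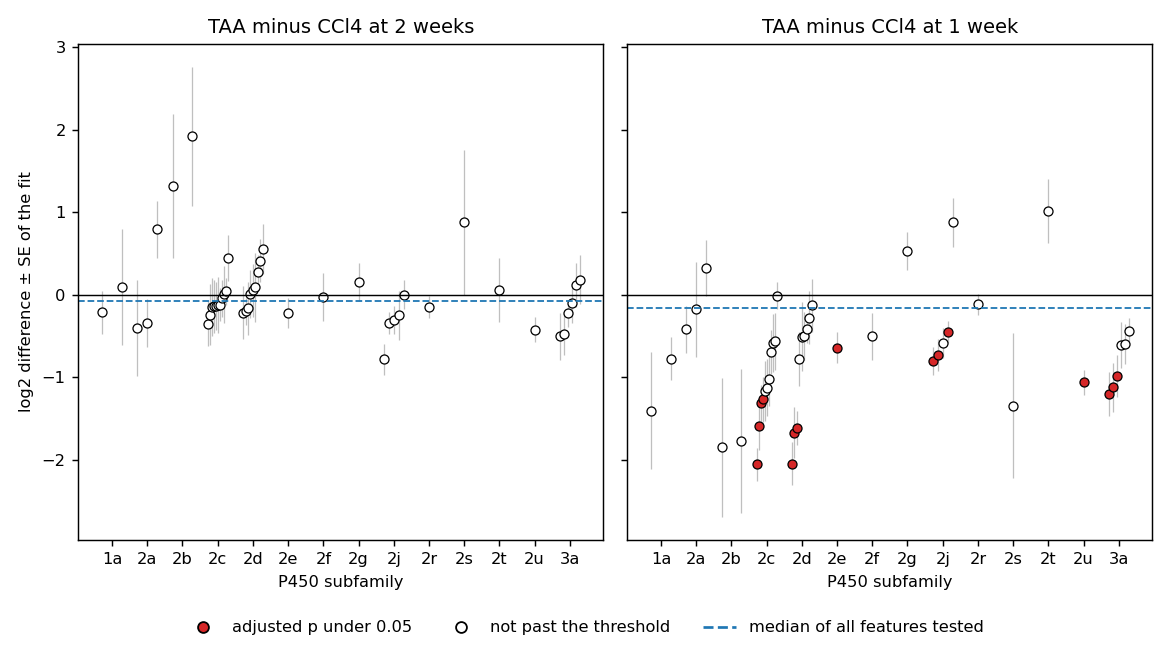
Difference of each P450 gene between TAA and CCl4 livers at 2 weeks (left) and 1 week (right), on the log2 scale with the SE of the fit as bars, by subfamily. Red points are the 15 genes with an adjusted p under 0.05, all at 1 week and all below 0, and the dashed line is the median of all features tested, at −0.08 and −0.16. The points of Cyp2b9 in both panels, and of Cyp1a1 and Cyp2a22 at 1 week, include arrays on which the gene was not well above background, and their sizes are not exact.

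The 2c subfamily, whose mouse enzymes oxidise arachidonic acid and other fatty acids as well as drugs, held the largest number of measured genes. All 11 had a negative difference at 1 week, with a median of −1.13. Of the 11, 4 were called lower, against 23.1% of all features. Cyp2c38, an arachidonic acid oxygenase, had log2 levels of 4.54 (miR-29a) and 4.10 (NC) in TAA 1-week livers, against 6.31 and 6.44 in CCl4 1-week livers. Its levels at 2 weeks were 6.30 and 6.41 after TAA and 6.36 and 6.60 after CCl4. The 2 TAA 1-week arrays thus stood far below the 6 others, which lay between 6.30 and 6.60, and no values overlapped. The difference at 1 week was −2.06 ± 0.20 (SE of the fit), or 4.16-fold lower after TAA, with an adjusted p of 0.00456 in limma. When the TAA 1-week NC array was left out it was −1.75, with an adjusted p of 0.0113.

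Cyp2c39, known to hydroxylate retinoic acid, had levels of 4.32 and 3.61 in TAA 1-week livers, against 5.44 and 5.68 in CCl4 1-week livers. The groups did not overlap, and the difference was −1.59 ± 0.29, with an adjusted p of 0.0131 in limma. Cyp2c29, one of the pericentral P450 genes, had 6.40 and 5.86 after TAA, against 7.35 and 7.56 after CCl4. Its difference of −1.32 ± 0.23 had an adjusted p of 0.0113 in limma, and both TAA arrays lay below all others. Cyp2c55, a gene that CAR and PXR induce, had −0.08 and −0.19 after TAA, against 0.71 and 1.56 after CCl4. It fell by 1.27 ± 0.28 on the log2 scale (adjusted p = 0.0213 in limma), although the 2 CCl4 arrays lay well apart. All 4 genes remained called without the TAA 1-week NC array, with differences between −0.84 and −1.75.

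The pericentral genes Cyp2c37, Cyp2c50 and Cyp2c54 had differences of −1.13, −1.02 and −1.17 that missed the threshold, with adjusted p-values of 0.0526, 0.0585 and 0.0567 in limma. Without the TAA 1-week NC array these were −0.56, −0.49 and −0.55. Cyp2c67, Cyp2c68 and Cyp2c44, whose current symbol is Cyp2c23, had differences of −0.69, −0.59 and −0.57, none of them called, and without the TAA 1-week NC array of −0.28, 0.01 and 0.04. Cyp2c70, the mouse enzyme that makes muricholic acids, was the exception in the subfamily. It had levels of 7.66 and 7.64 in TAA 1-week livers, against 7.45 and 7.87 in CCl4 1-week livers, a difference of −0.01 with an adjusted p of 0.959 in limma.

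Probes of neighbouring 2c genes can share transcripts, so a pair of probes for different genes that cover a like stretch of transcript is shown, with the letters that differ in the shared stretch in capitals:
Cyp2c29: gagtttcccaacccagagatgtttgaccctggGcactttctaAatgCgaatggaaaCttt
Cyp2c37: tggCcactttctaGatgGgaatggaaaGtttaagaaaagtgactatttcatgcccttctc
The Cyp2c29 probe lies at chr19:39403642-39403701 and begins at base 1230 of its transcript. The Cyp2c37 probe lies at chr19:40084382-40084441 and begins at base 1242 (mm9, plus strand, as the files give them). Laid over each other they share 31 positions, of which 4 differ. The Cyp2c29 probe had a difference of −1.32 at 1 week and this Cyp2c37 probe one of −1.57. How much each probe binds the other's transcript was not tested, so values of near-identical 2c and 3a genes are uncertain as to the gene.

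In the 2d subfamily 3 of 9 genes fell at 1 week, against 23.1% of all features called lower, and the others had smaller differences. Cyp2d22 had levels of 3.80 and 3.08 in TAA 1-week livers, against 5.61 and 5.38 in CCl4 1-week livers. The difference was −2.05 ± 0.26, or 4.14-fold lower after TAA, with an adjusted p of 0.00567 in limma. Cyp2d9, a testosterone hydroxylase found mainly in males, had 6.18 and 5.11 after TAA, against 7.36 and 7.28 after CCl4. It fell by 1.67 ± 0.30 on the log2 scale (adjusted p = 0.0132 in limma). Cyp2d12 had 6.35 and 5.79 after TAA, against 7.77 and 7.61 after CCl4, a difference of −1.62 ± 0.20 with an adjusted p of 0.00561 in limma. For all 3 genes both TAA 1-week arrays lay below every other array. All 3 were also called without the TAA 1-week NC array, with differences of −1.66, −1.15 and −1.33. The other 6 genes, Cyp2d10, Cyp2d11, Cyp2d13, Cyp2d26, Cyp2d34 and Cyp2d40, had differences between −0.78 and −0.13 and none was called, and in the fit without that array their differences ran from −0.24 to 0.41. On the TAA 1-week miR-29a array Cyp2d10, Cyp2d11 and Cyp2d13 were at 8.95, 9.76 and 2.72, above both CCl4 1-week arrays.

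The probes that carried the 3 called 2d genes all lie upstream in their transcripts, starting at bases 654 to 895:
Cyp2d22: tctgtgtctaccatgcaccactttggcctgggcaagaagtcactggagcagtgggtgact
Cyp2d9: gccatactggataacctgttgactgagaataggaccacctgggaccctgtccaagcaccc
Cyp2d12: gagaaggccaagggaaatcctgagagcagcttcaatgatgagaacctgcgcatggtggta
They are shown because the direction of a called gene rests on 1 such probe each. Their places on mm9 are chr15:82204377-82204436 on the minus strand for Cyp2d22, chr15:82285582-82285641 on the plus strand for Cyp2d9 and chr15:82388259-82388501 on the plus strand for Cyp2d12. The last of these spans 243 bases of genome, more than its 60 letters, and so is split by a gap.

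The 3a subfamily is that of the main mouse steroid and drug oxidase Cyp3a11. Of its 6 measured genes 3 fell at 1 week, against 23.1% of all features called lower. Cyp3a59 had levels of 6.21 and 5.72 in TAA 1-week livers, against 7.07 and 7.28 in CCl4 1-week livers, a difference of −1.21 ± 0.27 with an adjusted p of 0.0224 in limma. Cyp3a16, a gene of fetal and newborn mouse liver, had 6.37 and 5.82 after TAA, against 7.16 and 7.29 after CCl4, a difference of −1.12 ± 0.29 (adjusted p = 0.0355 in limma). Cyp3a57 had 5.59 and 5.09 after TAA, against 6.17 and 6.49 after CCl4, a difference of −0.99 ± 0.25 (adjusted p = 0.0339 in limma). No values of the 2 agents overlapped in these 3 genes. In the fit without the TAA 1-week NC array Cyp3a59 and Cyp3a57 were called, at −0.78 and −0.56, and Cyp3a16 was not, at −0.65 with an adjusted p of 0.0771. Cyp3a11 itself had 9.27 and 8.71 after TAA, against 9.55 and 9.64 after CCl4, a difference of −0.60 that missed the threshold (adjusted p = 0.107 in limma) and was −0.21 without the TAA 1-week NC array. Cyp3a25 and Cyp3a13 had differences of −0.61 and −0.44, not called, and Cyp3a13 was called at −0.61 when the TAA 1-week NC array was left out.

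Cyp2e1, the enzyme that activates both toxins, fell at 1 week by 0.64 ± 0.19 on the log2 scale, or 1.56-fold, with an adjusted p of 0.0460 in limma. Its levels were 9.67 and 9.19 in TAA 1-week livers, against 10.2 and 9.94 in CCl4 1-week livers, and both TAA arrays lay below all others. At 2 weeks they were 9.70 and 9.80 after TAA and 9.95 and 9.996 after CCl4. When the TAA 1-week NC array was left out the difference at 1 week was −0.43 and was not called (adjusted p = 0.142 in limma).

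The enzymes of the 2j subfamily form epoxides of arachidonic acid. Of its 5 measured genes 3 fell at 1 week, against 23.1% of all features called lower. Cyp2j8 had 4.15 and 3.96 in TAA 1-week livers, against 4.81 and 4.90 in CCl4 1-week livers, a difference of −0.80 ± 0.17 with an adjusted p of 0.0197 in limma. Cyp2j5 had 1.23 and 0.78 after TAA, against 1.61 and 1.86 after CCl4, a difference of −0.73 ± 0.19 (adjusted p = 0.0362 in limma). Cyp2j13 had 1.90 and 1.79 after TAA, against 2.27 and 2.32 after CCl4, a difference of −0.45 ± 0.13 (adjusted p = 0.0488 in limma). All 3 calls were lost without the TAA 1-week NC array, at differences of −0.67, −0.49 and −0.38. Cyp2j9 went the other way, with 3.01 and 1.89 in TAA 1-week livers, against 1.61 and 1.53 in CCl4 1-week livers, a difference of 0.88 that was not called. It was called at 1.40 without the TAA 1-week NC array (adjusted p = 0.0122 in limma).

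Cyp2u1, a hydroxylase of long-chain fatty acids, was the other gene called. Its brightest probe had 8.50 and 8.39 in TAA 1-week livers, against 9.36 and 9.66 in CCl4 1-week livers, a difference of −1.06 ± 0.15 with an adjusted p of 0.00698 in limma. The other detected probes of Cyp2u1, of other transcript records, had differences of 0.23 and −0.29, so the direction rests on 1 probe. That probe is named through a cDNA clone record of the array design, and its assignment to Cyp2u1 is uncertain, so 1 of the 15 calls may not be of this gene. Without the TAA 1-week NC array its difference was −0.96, with an adjusted p of 0.0241 in limma.

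No gene of the 1a, 2a and 2b subfamilies was called at 1 week. Cyp1a1, the classical target of the aryl hydrocarbon receptor, was not well above background on the TAA 1-week NC array, where the lowest detected level of any probe was −2.98, and lay between −2.68 and −2.35 on the 7 others. Only 1 of the 2 TAA 1-week arrays thus measured it, and without the NC array its difference was −0.10, not called. Cyp1a2, which oxidises caffeine and arylamines, had 4.11 and 3.46 in TAA 1-week livers, against 4.49 and 4.63 in CCl4 1-week livers, a difference of −0.78 (adjusted p = 0.0712 in limma), or −0.55 without the TAA 1-week NC array. Cyp2a4, a steroid hydroxylase more abundant in females, had 8.94 and 7.29 after TAA, against 8.25 and 7.33 after CCl4, with groups that overlapped. The 2a median of −0.18 became 0.13 with normexp background correction and 0.86 without the TAA 1-week NC array, so it had no settled direction. Cyp2a22 was called higher, at 0.87, only in the fit without that array, on which it was not well above background.

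Cyp2b9, a female-predominant gene of mouse liver, was not well above background on either TAA 1-week array, at −2.86 and −3.58, against −1.56 and −1.18 in CCl4 1-week livers. It was at least 2.94-fold lower after TAA, with an adjusted p of 0.141 in limma. This bound sets the mean of the CCl4 arrays against the higher of 2 values on each TAA array. These are the lowest detected level of the array and the gene's own level, which gave −2.98 (NC) and −2.86 (miR-29a). Cyp2b10, the CAR target that phenobarbital induces, had 3.10 and 1.73 after TAA, against 3.95 and 4.43 after CCl4, a difference of −1.78 (adjusted p = 0.164 in limma). Both genes were lower on both TAA arrays, but with wide spread and no call. In the fit without the TAA 1-week NC array the differences of Cyp2b9 and Cyp2b10 were −0.66 and −0.35, so the size of both rests largely on that array. Cyp2f2, which activates naphthalene, had a difference of −0.51, and of −0.01 without that array. Cyp2r1, a vitamin D hydroxylase, had one of −0.12, and 0.21 under quantile normalization. Cyp2g1 and Cyp2t4 had differences of 0.53 and 1.01, that of Cyp2g1 being −0.07 under array median scaling, and Cyp2s1 one of −1.35 with an SE of 0.88, none of them called. When the TAA 1-week NC array was left out that of Cyp2t4 was 0.32.

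At 2 weeks no P450 gene differed between TAA and CCl4 livers by the test. None of the 45 was called by limma, and 0.0% of all features were. At an unadjusted p under 0.05, 3 genes passed, all lower after TAA, against 11.3% of all features in either direction and 7.83% that were lower. These were Cyp2j5 at −0.79 ± 0.19, Cyp2u1 at −0.42 ± 0.15 and Cyp2j13 at −0.35 ± 0.13. The median over the 45 genes was −0.12, against −0.08 over all features, and it was 0.08 under quantile normalization, so that it had no settled direction. The medians of the 2c, 2d and 3a genes were −0.13, 0.05 and −0.17. Under quantile normalization the 2c and 3a medians were positive, at 0.08 and 0.03, and under array median scaling the 2d median was −0.14. Cyp2b10 had a difference of 1.32 at 2 weeks that was not called. Cyp2b9 was not called either, its groups overlapped, and it was not well above background on the CCl4 2-week miR-29a array, so the size of its difference is not given. A p that misses the threshold does not show that the levels were equal.

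Averaged over both weeks, the additive fit of agent, week and oligonucleotide called none of the 45 genes between TAA and CCl4 livers (limma, against 0.0% of all features). At an unadjusted p under 0.05, 11 were lower and none higher after TAA, against 19.7% and 9.01% of all features and 28.7% in both directions. All 4 TAA arrays lay below all 4 CCl4 arrays for 9 of 45 genes, against 18.1% of all features, a share near the background. With each array scaled to its median 13 genes (28.9%) were called lower, against 28.1% of all features, a share at the background, while the median of all features moved to −0.52.

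The difference between the agents itself depended on the week at the probes of 4 genes. Agent by week, defined as the TAA minus CCl4 difference at 2 weeks less that at 1 week, passed the test in limma for Cyp2d22, Cyp2d9, Cyp2d12 and Cyp2c38, all positive. This is 4 of 45 genes (8.89%), against 5.55% of all features called in that direction, 4.29% in the other and 9.84% in all. The terms were 2.46 ± 0.37, 2.22 ± 0.43, 1.90 ± 0.29 and 1.93 ± 0.28, with adjusted p-values of 0.0290, 0.0407, 0.0295 and 0.0288. The 4 genes reached this term in different ways. In Cyp2c38 the 2-week arrays of both agents and the CCl4 1-week arrays lay between 6.30 and 6.60. The 3 genes of the 2d subfamily also had lower values at 2 weeks than at 1 week after CCl4, in differences that were not called. Cyp2d22 had 4.40 and 4.56 in CCl4 2-week livers, against 5.61 and 5.38 in CCl4 1-week livers, a difference of −1.01 ± 0.26 (adjusted p = 0.131 in limma). After TAA it had 4.77 and 5.01 at 2 weeks, against 3.80 and 3.08 at 1 week. The probes of these 3 genes start at bases 654 to 895. Over 12 P450 genes with more than 1 detected probe of a transcript, the 5′-most probe had a median TAA minus CCl4 difference of −1.39 at 1 week and −0.02 at 2 weeks. The 3′-most probe had −0.72 and −0.11. The part of the place of the probe in the agent by week term was not tested.

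**Figure D3:**
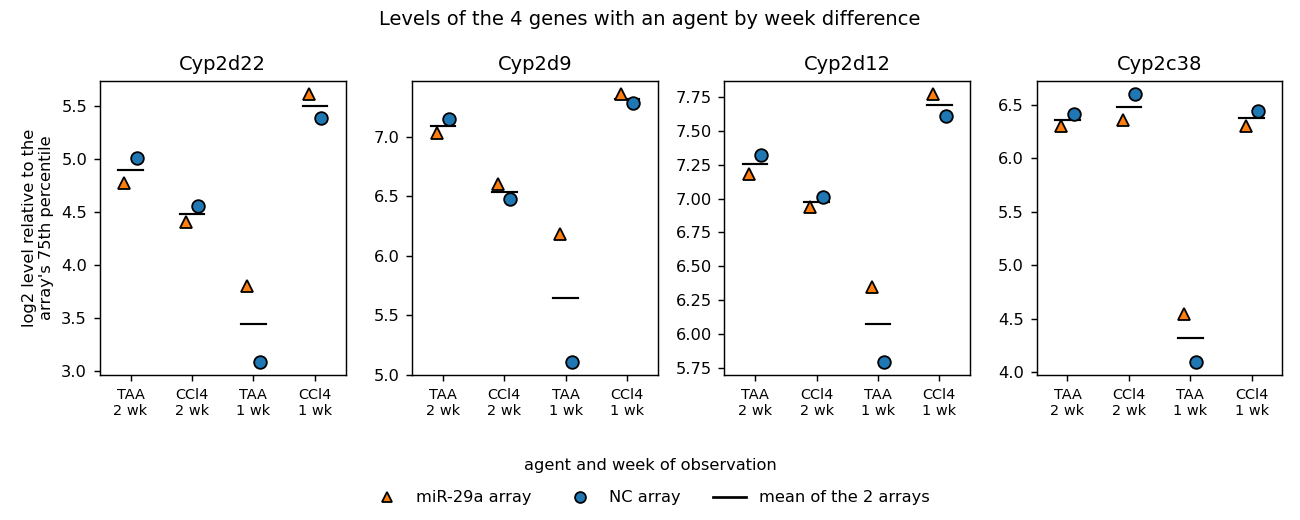
Log2 level of the 4 genes called in the agent by week test on each of the 8 arrays, by agent and week, with triangles for miR-29a, circles for NC and lines for the mean of the 2. Cyp2c38 is low in TAA 1-week livers alone, at 4.54 and 4.10, and the 3 genes of the 2d subfamily are lowest there and highest in CCl4 1-week livers.

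Without the TAA 1-week NC array the 4 genes were called with terms of 2.07, 1.70, 1.61 and 1.63, together with Cyp2c29, Cyp2c55 and, in the negative direction, Cyp2j9. The counts of both tests moved with single arrays. At 1 week 34 genes were called without the TAA 1-week miR-29a array, 33 of them lower (73.3%), against 26.7% of all features. Without CCl4 1-week miR-29a it was 5 genes, all lower (11.1%), against 5.08%, and without either CCl4 2-week array 8, all lower (17.8%), against 14.6%. For agent by week the count was 20 (44.4%) without the TAA 1-week miR-29a array, against 12.4% of all features, and 7 (15.6%) without TAA 1-week NC, against 12.8%. It was 0 without any single CCl4 array or TAA 2-week array, where no feature of the whole table was called either.

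Between 2 weeks and 1 week no P450 gene was called in limma, over both agents (0.0% of all features), after TAA (0.0%) or after CCl4 (1.08%). At an unadjusted p under 0.05 the counts were 2, 14 and 5 genes, against 5.19%, 27.0% and 18.5% of all features. The 14 after TAA were all higher at 2 weeks, against 16.1% of all features, and belonged to the 2c, 2d, 2j and 3a subfamilies. Their differences ran from 0.52 for Cyp2j8 to 2.04 for Cyp2c38. Both TAA 2-week arrays lay above both TAA 1-week arrays for 24 of 45 genes (53.3%), against 30.9% of all features. Cyp2c38 had 6.30 and 6.41 in TAA 2-week livers, against 4.54 and 4.10 in TAA 1-week livers, with an adjusted p of 0.0634 in limma. Cyp2b9 was at least 3.05-fold higher at 2 weeks than at 1 week after TAA (adjusted p = 0.219 in limma). It was not well above background at 1 week, so the bound given above was used there. The median over the 45 genes after TAA was 0.52, against 0.04 over all features, and 0.13 without the TAA 1-week NC array. By the adjusted test the count after TAA was 12, all higher, with normexp background correction (9.87% of all features higher) and 7, all higher, with each array scaled to its median (3.77%). It was 7 with a trend in the prior variance (4.79%) and 5 with probes detected on all 8 arrays (3.78%), again all higher. Without the TAA 1-week miR-29a array 20 genes were called, against 4.59% of all features.

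After CCl4 the genes had no shared direction with time. The median difference of 2 weeks minus 1 week was −0.01, against −0.03 over all features. Cyp2j9 had the largest positive difference, with 2.95 and 2.87 in CCl4 2-week livers, against 1.61 and 1.53 in CCl4 1-week livers. Its difference of 1.34 ± 0.30 missed the threshold (adjusted p = 0.107 in limma), and the groups did not overlap. It was the 1 gene called when either TAA 1-week array was left out, against 2.72% of all features. Cyp2d22, Cyp2d9, Cyp2d12 and Cyp2u1 were lower at 2 weeks at an unadjusted p under 0.05, with differences of −1.01, −0.78, −0.71 and −0.45, against 8.7% of all features that were lower.

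The injected oligonucleotide made no difference that the test called. Over the 4 matched pairs of arrays limma called none of the 45 genes and 0.0% of all features between miR-29a and NC. No gene was called in the tests of miR-29a by agent or by week either (0.0% of all features), and none reached an unadjusted p under 0.05 in those, against 1.39% and 1.92% of all features. In the main comparison 2 genes did, Cyp2a4 and Cyp2g1, both higher with miR-29a, against 2.83% of all features in either direction and 1.66% that were higher. The 4 pairs did not behave alike. In the TAA 1-week pair miR-29a lay above NC for 42 of 45 genes (93.3%), against 62.6% of all features, with a median difference of 0.71. In the TAA 2-week, CCl4 2-week and CCl4 1-week pairs it did so for 21, 15 and 16 genes, with medians of −0.02, −0.13 and −0.10. The TAA 1-week pair rests on the NC array with the high neutrophil level, which was also the lowest of 8 for 36 genes, against 31.8% of all features. Whether the neutrophil, Kupffer cell and acute phase signal has a part in this was not tested.

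**Figure D4:**
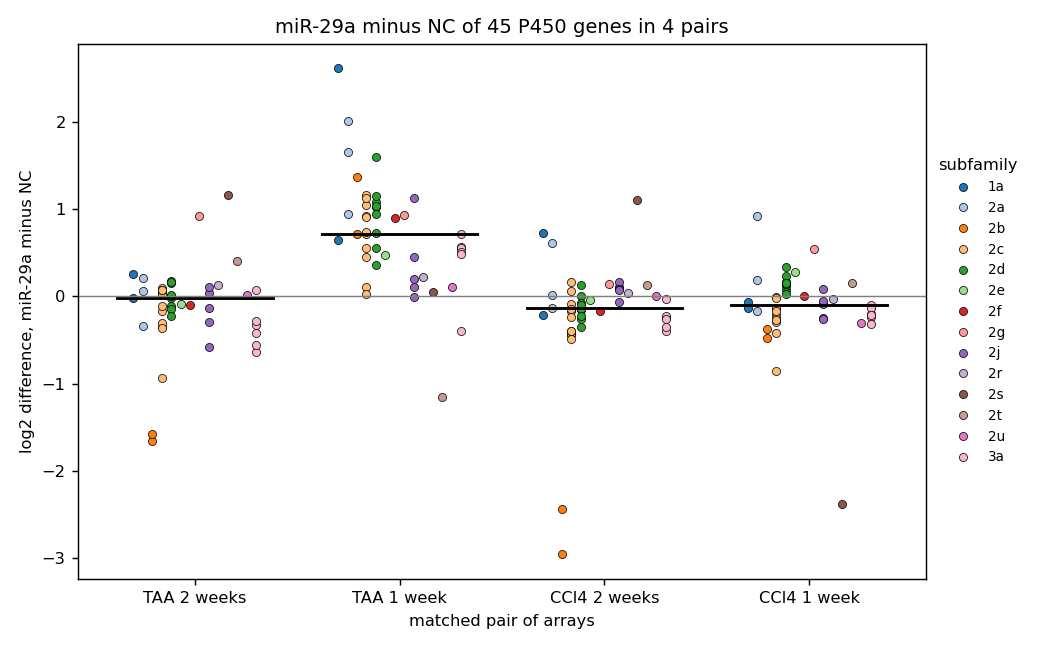
Difference of each of the 45 P450 genes between the miR-29a and the NC array of each matched pair, on the log2 scale, with colours for subfamilies and a black line for the median of each pair. The TAA 1-week pair has a median of 0.71 and those of the other 3 pairs lie near 0, with Cyp2b10 at −1.58 and −2.44 in the 2-week pairs. Points of Cyp2b9 in the TAA 1-week and CCl4 2-week pairs include arrays on which it was not well above background.

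Large differences within the 2-week pairs were those of the 2b genes. Cyp2b10 had 3.31 with miR-29a, against 4.90 with NC, in the TAA 2-week pair. In the CCl4 2-week pair it had 1.57 with miR-29a, against 4.01 with NC. In the TAA 1-week pair it had 3.10, against 1.73, and in the CCl4 1-week pair 3.95, against 4.43. The pair differences were thus −1.58, −2.44, 1.36 and −0.47. Cyp2b9 differed by −1.66 in the TAA 2-week pair and −0.38 in the CCl4 1-week pair. In the CCl4 2-week pair it was not well above background with miR-29a, against −1.76 with NC, and in the TAA 1-week pair on neither array. Averaged over pairs the difference of Cyp2b10 was −0.78 ± 0.83, smaller than its error. Cyp2a4 was higher with miR-29a in all 4 pairs, by 0.21, 1.65, 0.60 and 0.92 in that order of pairs, an average of 0.85 ± 0.25 with an adjusted p of 1.00 in limma. Cyp2g1 was higher by 0.92, 0.93, 0.14 and 0.54, an average of 0.63 ± 0.18, and Cyp2j9 by 0.08 to 1.12. Cyp2j6 was lower in all 4 pairs, by 0.01 to 0.58. With 3 of 45 genes always above NC (6.67%) and 1 always below (2.22%), against 10.3% and 5.69% of all features, agreement over the pairs was no more frequent than in the whole table. Cyp2s1 showed how far single arrays can stray, with pair differences of 1.16, 0.04, 1.097 and −2.38.

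In 12 of the 45 genes more than 1 probe of the same transcript was detected, so that the 1-week difference could be read at different places of a transcript. In 9 of the 12 genes the probe nearest the 5′ end had the lower TAA minus CCl4 difference at 1 week. The median over the 12 genes was −1.39 at the 5′-most probe and −0.72 at the 3′-most one. At 2 weeks the medians were −0.02 and −0.11. Cyp2c54 had a difference of −2.30 at the probe starting at base 760 and −1.17 at base 1614. Cyp3a11 had −1.96 at base 1104 and −0.60 at base 1939. Cyp2e1 had −1.64 at base 925 and −0.64 at base 1487, and Cyp2d34 had −1.87 at base 762 and −0.50 at base 1526. In these genes the brightest probe, on which the calls rest, was the 3′ one and showed the smaller difference. The order was the opposite in Cyp2j6, Cyp2r1 and Cyp3a59. The dimmer probe also had the lower difference in 9 of the 12 genes, and the 5′ probe was the dimmer one in 6, so the brightness of a probe moved with the difference as its place did, and the part of either was not tested.

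The upstream probes of these 4 genes are shown, since they give the larger differences:
Cyp2c54: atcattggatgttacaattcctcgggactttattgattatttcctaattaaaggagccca
Cyp3a11: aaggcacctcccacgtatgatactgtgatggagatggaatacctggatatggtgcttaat
Cyp2e1: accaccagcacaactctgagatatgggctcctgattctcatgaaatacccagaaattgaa
Cyp2d34: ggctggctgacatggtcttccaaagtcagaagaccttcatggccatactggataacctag
They lie on mm9 at chr19:40144659-40144718 (minus strand), chr5:146672058-146673925 (minus strand, split by a gap), chr7:147956922-147956981 (plus strand) and chr15:82447966-82448025 (minus strand).

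**Figure D5:**
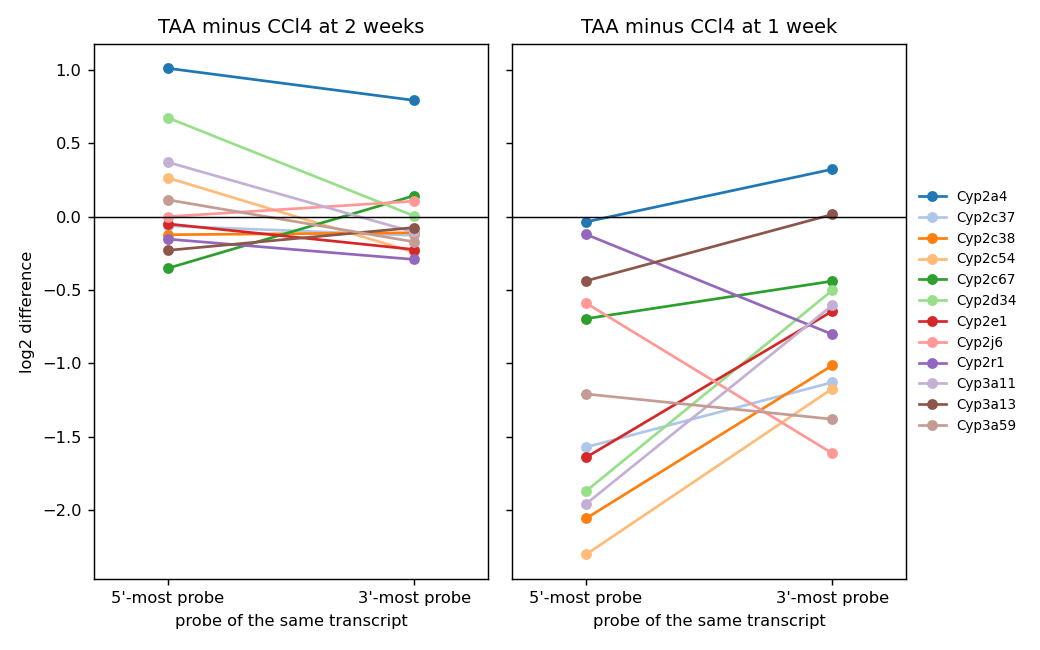
TAA minus CCl4 difference, on the log2 scale, at the 5′-most and the 3′-most detected probe of the same transcript for 12 P450 genes, at 2 weeks (left) and 1 week (right). At 1 week 9 of the 12 lines climb towards the 3′ end, and at 2 weeks the points lie between −0.35 and 1.01.

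The same reading over the whole table moved with the groups. Over 713 genes with probes 300 to 1000 bases apart, the level of the upstream probe relative to the downstream one, centred on its mean over the arrays, had medians of −0.26 (miR-29a) and −0.15 (NC) on the TAA 1-week arrays, against 0.20 and 0.15 on the CCl4 1-week arrays. It was 0.06 and 0.14 on the TAA 2-week arrays, and −0.08 and −0.04 on the CCl4 2-week arrays. For the next values the probes of the table had a RefSeq record and were detected on all 8 arrays. The P450 probes had to be detected on at least 4, so the filters were unlike. Probes that begin within the first 1000 bases had a median difference of −0.40 at 1 week over 3534 probes of the table. Over 9 P450 probes it was −1.85, with values from −2.46 to −0.29. This median is the value of Cyp2b9, which was not well above background on either TAA 1-week array, so its size is not exact. Probes that begin beyond base 2500 had −0.14 over 5528 probes, and −1.35 over 5 P450 probes, with values from −1.61 to 0.02. The −1.35 is the value of Cyp2s1, whose arrays varied widely. The 5 include Cyp1a1, which was not well above background on the TAA 1-week NC array. A measure that follows the place of the probe thus moved together with the 1-week difference, and its part in the result was not tested. With the 5′-most detected probe taken for each gene 17 of 45 genes were called lower at 1 week (23.6% of all features), and with the dimmest one 19 (23.1%).

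The genes that act on P450 expression or function were read in the same fit, as lists of known members. Of 26 measured regulators of P450 genes, 5 fell at 1 week in TAA relative to CCl4 livers (19.2%, below the 23.1% of all features called lower) and none rose, with a median difference of −0.16, equal to that of all features. Bcl6, a repressor that acts at STAT5 sites in male liver, fell most. It had 2.80 and 3.15 in TAA 1-week livers, against 5.51 and 5.87 in CCl4 1-week livers, a difference of −2.71 ± 0.31 with an adjusted p of 0.00497 in limma. Nr0b2, the bile acid-induced repressor SHP, fell by 2.13 on the log2 scale, Stat5b, the mediator of growth hormone signals, by 0.91, Nfe2l2, the oxidative stress factor NRF2, by 0.83 and Cebpa by 0.68. Without the TAA 1-week NC array only Bcl6 of these 5 was called, at −2.89, and Nr0b2 had −1.21. The receptors themselves were not called. Nr1i3, which encodes CAR, had a difference of 0.22, Nr1i2, which encodes PXR, −0.32, Ahr −0.42, Arnt 0.43, Rxra 0.39, Ppara −0.36 and Hnf4a −0.03. Without that array Nr1i3 had 0.71, Nr1i2 −0.02, Ahr −0.95 and Hnf4a 0.09, the last with its sign turned.

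Of 6 redox partners 2 fell at 1 week (33.3%, against 23.1% of all features), Cyb5r3 at −0.68 and Pgrmc2 at −0.76. Por, the oxidoreductase that feeds all these enzymes, had a difference of 0.15. In the fit without the TAA 1-week NC array Pgrmc2 was called and Cyb5r3 was not. Of 12 genes of haem synthesis and breakdown 5 fell (41.7%, against 23.1% of all features) and none rose, with a median of −0.36. Without that array not all 5 remained called, and the median was −0.35. Among those that fell, Alad, an enzyme of haem synthesis, did so by 1.18 on the log2 scale, Fech by 0.63, Urod by 0.54 and Blvra by 0.49. Without the TAA 1-week NC array these differences were −1.21, −0.58, −0.37 and −0.52. Alas1, which sets the rate of haem synthesis, had 8.52 and 8.26 after TAA, against 7.78 and 6.81 after CCl4, a difference of 1.09 that was not called. Hmox1, the enzyme that breaks haem down, had no settled direction, with 1.52 and 3.42 in TAA 1-week livers, against 2.02 and 1.97 in CCl4 1-week livers. Its difference was 0.47, and −0.46 without the TAA 1-week NC array, neither of them called.

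Other targets of the same receptors were read in the same way. Of 17 further CAR and PXR targets 3 fell, Gsta4 at −1.11, Abcb1a at −0.77 and Ugt2b35 at −0.71, and 1 rose, Meg3 at 2.87, with a median of −0.31. The share called lower was 17.6%, against 23.1% of all features. When the TAA 1-week NC array was left out the median was −0.02, and Abcb1a was the 1 of the 3 still called. Of 5 further targets of the aryl hydrocarbon receptor 1, Ugt1a6a, rose, by 1.504, against 12.6% of all features called higher, and none fell. Markers of liver zones were called lower at shares near the 23.1% of all features: 4 of 16 pericentral genes (among them Cyp27a1 at −1.74, Slc1a2 at −1.48 and Axin2 at −1.35) and 3 of 13 periportal genes (Hsd17b13 at −1.51, Cps1 at −1.22 and Arg1 at −0.79), with medians of −0.38 and −0.53. Without the TAA 1-week NC array the list medians were −0.74 and −0.44. Glul, the pericentral glutamine synthetase, had a difference of −0.81 that missed the threshold. The 7 measured pericentral P450 genes of families 1 to 3 had a median of −1.02. Cyp27a1, a P450 of another family, was counted among the 16 pericentral genes instead. Of them 2 (28.6%), Cyp2c29 and Cyp2e1, were called lower, against 23.1% of all features. When the TAA 1-week NC array was left out the median of the 7 was −0.55, against −0.74 for the 16 other pericentral genes. Of the 9 hepatocyte markers only Cps1 was called, and their median difference was −0.05, or −0.25 without the TAA 1-week NC array.

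Promoter sequences from RefSeq (build GRCm38.p6) were matched by symbol for 37 of the 45 genes, and the 200 bases before the start were searched on both strands for 8 motifs chosen after the expression values were known. CAAAGNNCA, which takes in the CAAAGTCCA core bound by HNF4 factors, was present in 17 of 37 genes (45.9%), against 4.36% of 32851 promoters. CAAAGTCCA alone was in 5 genes (13.5%), against 0.317%. TATAAA was in 18 genes (48.6%), against 9.96%. GCGTG, the core of the aryl hydrocarbon receptor element, was in 5 (13.5%), against 24.7%, and TTCNNNGAA, the STAT and BCL6 core, in none, against 5.49%. TTGCNNAA was in 8 (21.6%), against 7.47%, ATTGCNNAA, which lies within matches to it, in 2 (5.41%), against 1.5%, and the HNF1 palindrome in none, against 0.00913%. Of the 12 matched genes called lower at 1 week 4 held CAAAGNNCA, and of the 25 others 13 did. A match is a description of these letters and not a site, and a missing match says nothing of a factor.

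The 120 bases before the start are shown for 4 genes of the 2d subfamily that differed in their 1-week values and for 3 of 2c, with CAAAGNNCA in capitals:
Cyp2d9: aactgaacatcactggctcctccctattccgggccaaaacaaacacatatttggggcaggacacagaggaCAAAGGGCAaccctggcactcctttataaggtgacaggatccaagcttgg
Cyp2d11: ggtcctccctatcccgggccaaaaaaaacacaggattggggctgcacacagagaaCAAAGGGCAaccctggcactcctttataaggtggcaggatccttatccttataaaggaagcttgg
Cyp2d10: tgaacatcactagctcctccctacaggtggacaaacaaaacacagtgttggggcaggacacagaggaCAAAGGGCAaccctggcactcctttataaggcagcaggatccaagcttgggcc
Cyp2d26: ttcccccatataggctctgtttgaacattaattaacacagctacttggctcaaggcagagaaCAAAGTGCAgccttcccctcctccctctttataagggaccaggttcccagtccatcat
Cyp2c38: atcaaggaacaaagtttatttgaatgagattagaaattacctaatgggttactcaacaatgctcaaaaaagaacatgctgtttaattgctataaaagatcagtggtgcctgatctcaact
Cyp2c37: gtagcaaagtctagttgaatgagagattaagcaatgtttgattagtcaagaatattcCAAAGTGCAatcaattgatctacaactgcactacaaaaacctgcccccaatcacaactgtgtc
Cyp2c70: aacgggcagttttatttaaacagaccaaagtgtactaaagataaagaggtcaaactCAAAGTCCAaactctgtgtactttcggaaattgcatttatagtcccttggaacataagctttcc
On GRCm38.p6 they are chr15:82452257-82452376 (plus strand), chr15:82394023-82394142, chr15:82407195-82407314 and chr15:82794246-82794365 (minus strand) for the 2d genes in that order. The 2c genes follow at chr19:39463076-39463195 (minus strand), chr19:39992304-39992423 (plus strand) and chr19:40187287-40187406 (minus strand). Cyp2d9, Cyp2d11 and Cyp2d10 shared the capital letters CAAAGGGCA 50 to 65 bases before the start, while their 1-week differences were −1.67, −0.51 and −0.28. Their probes start at bases 828, 1467 and 1587 of the transcripts, so the gene and the place of the probe cannot be told apart in these differences. Cyp2c38, with the largest difference of all 45 genes at 1 week, held no match, and Cyp2c70, with almost none, held the CAAAGTCCA form 64 bases before the start.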

How the data were processed

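Liver RNA of 8 samples was measured on one-colour (Cy3) Agilent arrays. Per the file headers, spot intensities were extracted with Agilent Feature Extraction 10.10.1.1. The processed signal is an intensity from which background was subtracted and spatial trends were removed, and the headers give mm9 probe positions. The deposited matrix holds log2 values, which the authors did not describe in the sources used here. Set against the array files, they equalled log2 processed signal minus a constant per array within 0.01 for about 99.8% of 55657 probes. Their 75th percentiles lay between 0.004 and 0.009, so their scaling is nearly the one used here. Their medians were −3.56, −3.72, −3.46 and −3.45 on the TAA arrays (2 weeks miR-29a, 2 weeks NC, 1 week miR-29a, 1 week NC) and −3.80, −3.86, −4.06 and −4.03 on the CCl4 arrays in that order.

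Here the processed signal was taken to log2 and each array was set to 0 at its 75th percentile. Outlier spots were left out, which removed 24 probes, and spots of 1 probe were averaged. The brightest probe per gene was kept if well above background on at least 4 of 8 arrays, which left 18534 features. Probes were named through RefSeq tables by accession (27635), symbol (3405) or older symbol (321), and 24296 kept the file's name. limma 3.58.1 (R 4.3.3) was fitted across all features, with Benjamini-Hochberg adjustment at 0.05. Agent, week and oligonucleotide entered an additive model (4 residual degrees of freedom). The agent by week model (3 residual degrees of freedom) gave the comparisons within weeks and agents, with the 2 oligonucleotides as replicates. The scripts were tested on simulated data. Nothing says that the arrays come from separate cultures or animals of 1 group, so p-values measure the spread between these samples. In the agent by week model this spread is how far the miR-29a minus NC difference varied between the 4 pairs. An oligonucleotide effect that differed between pairs would be part of it. The number of arrays limits the precision.

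Genes are named by this rule: those called in any comparison, those with the largest difference or variance of their subfamily, and of the lists those called and the main receptors. Some list genes that it covers are not reported here. The values of other genes are given beside them for their subfamily. The members and lists were chosen with earlier results of these data known, and the printed probes and motifs after the values were seen. Alternatives were normexp background correction (offset 50), quantile and array median scaling, the deposited matrix, other filters and probe choices, a trend in the prior variance, the matched arrays as a block, and each array left out.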

Additional observations from a re-analysis of the deposited data

Results flagged for a closer look

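The agent by week term passed the test in 4 genes, so that the difference between TAA and CCl4 livers at 2 weeks was not that at 1 week. It was 2.46 in Cyp2d22, 2.22 in Cyp2d9, 1.93 in Cyp2c38 and 1.90 in Cyp2d12 on the log2 scale. Neither a cause nor the part of the place of the probe was tested. Among the 4 NC arrays the TAA 1-week array lay far from the others in the median of the 45 genes, at −0.89 relative to each gene's mean over the arrays. Among the 4 pairs of arrays the TAA 1-week pair lay far from the others in the median difference of miR-29a minus NC, at 0.71. Both of these values rest on the same NC array. Chance can also set a single array or pair apart among 4, and how often it does so was not tested.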

How the results depend on the processing

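The counts of called P450 genes depended on the processing. For TAA against CCl4 at 1 week 15 genes were called. The count was 28 with normexp (62.2%, against 44.5% of all features), 36 with array median scaling (80%, against 63.6%), 7 with no filter on dim probes (15.6%, against 11.2%), 23 with a trend in the prior variance (51.1%, against 38.8%), and 4 to 34 with 1 array left out. For agent by week 4 genes were called. The count was 10 with normexp (22.2%, against 18.5%), 11 with array median scaling (24.4%, against 18.6%), 0 with no filter (where no feature of the table was called), 9 with the dimmest and 9 with the 5′-most probe (20%, against 11.6% and 12.3%), and 0 to 20 with 1 array left out. For 2 weeks against 1 week after TAA none was called. The count was 12 with normexp (26.7%, against 13.8%), 7 with array median scaling (15.6%, against 4.11%), 5 of 42 with probes detected on all 8 arrays (11.9%, against 5.11%), 7 with a trend in the prior variance (15.6%, against 6.47%), and 0 to 20 with 1 array left out. After CCl4 it was 0 to 1 with 1 array left out, and over both agents 1 without the TAA 1-week pair (2.72% of all features), against none called. For TAA against CCl4 over both weeks it was 13 with array median scaling (28.9%, against 29.3%), against none called. The causes were not tested. With the matched arrays as a block for pairing, 0 genes were called for agent, week or oligonucleotide, as without it. The 1-week and agent by week tests, which hold all 19 called gene results, were not run with a block. The dimmest and 5′-most probe were chosen after seeing the data. Over the 19 called gene results and 342 alternatives, 244 kept direction and call, 98 kept direction and lost the call, and 0 reversed. The deposited matrix is among the alternatives and has nearly the main scaling, so its agreement is no separate check. A slide or scan block was not run, as all arrays share 1 slide and 1 scan. Genes near background, such as Cyp2b9, Cyp1a1 and Cyp2a22, are limited by their signal, and 1 array per combination limits all comparisons.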
